A study of Mus musculus with 30 samples.

Results

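Cathepsins are the main proteases of endosomes and lysosomes, and 9 of them were followed in sorted spinal cord glia: Ctsa, Ctsb, Ctsc, Ctsd, Ctsf, Ctsh, Ctsl, Ctss and Ctsz. They were the rows of the deposited table with these gene names and a protein-coding annotation, and all 9 were found among 30952 genes. RNA was sequenced from microglia and from astrocytes of 4 naive mice, 6 mice with experimental autoimmune encephalomyelitis (EAE) given vehicle and 5 mice with EAE given a RIPK1 kinase inhibitor, which made 30 libraries. EAE is a mouse model of multiple sclerosis in which immunization against a myelin peptide leads to inflammation of the spinal cord. All mice were female C57BL/6, and those of the naive groups served as the unimmunized reference. Mice of the EAE groups were immunized at 8 to 10 weeks of age with MOG35-55 in complete Freund's adjuvant, with pertussis toxin. They were dosed 2 times a day by gavage for 3 days from a clinical score of about 1. EAE-vehicle mice received 20% Captisol and EAE-RIPK1inh mice received GSK'547 at 50 mg/kg. No dosing is given for naive mice, so in EAE against naive the immunization, adjuvant, toxin and vehicle cannot be told apart. Microglia were gated as CD11b+ CD45int CX3CR1+ cells and astrocytes as GLAST+ cells without CD11b, CD45 or CD140a. A monocyte-derived cell with intermediate CD45 and CX3CR1 can also enter the first gate.

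A cathepsin is made as an inactive precursor, is carried to the endosome by mannose 6-phosphate receptors, and is activated there by removal of its propeptide. Most are cysteine proteases of the papain family, whereas cathepsin D is an aspartic protease and cathepsin A a serine carboxypeptidase. In microglia they degrade what the cell has taken up, and cathepsin S also removes the invariant chain (Cd74) from MHC class II molecules. Cystatins and stefins are inhibitors that bind the papain-family members.

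Levels are log2 FPKM (fragments per length of exon and per sequencing depth), quantile-normalized by the authors over all 30 libraries. Division by exon length is meant to let levels be set beside each other between genes, and the normalization gives all libraries the same distribution. The annotated exon lengths are shortest for Ctss (1358 bases), Ctsz (1441) and Ctsd (2351) and reach 6489 for Ctsl. Whether they match the transcripts present is not known. The order of the genes and their shares below depend on these lengths. A gene was called different at a fold change over 1.5 and an unadjusted p under 0.05 in limma, the cutoff of the study, and a p adjusted by Benjamini-Hochberg over all genes tested is given beside each call. The labels name the libraries of a group as replicates without saying more, and the study counts them as mice. A p-value thus measures the spread between these libraries, which may in part be technical. Since these are bulk samples, fewer cells of a type and less RNA per cell cannot be told apart. The number of genes with signal ranged from 8710 to 20398 in microglia libraries and from 6728 to 22981 in astrocyte libraries, with naive microglia replicate 4, naive astrocyte replicate 2 and EAE-vehicle astrocyte replicate 1 under 9000. The 8 astrocyte markers averaged 7.85 to 9.39 in every astrocyte library and 0.99 to 2.12 in every microglia library, and the 10 homeostatic microglia markers averaged 7.18 or more in every microglia library and 3.45 or less in every astrocyte library. Astrocyte libraries also held RNA of other cells, with means of 6.19 to 9.91 for 7 oligodendrocyte markers and 3.88 to 6.07 for 6 neuron markers.

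The genes lie on 7 chromosomes of GRCm38. Ctss lies at chr3:95526786-95556403, Ctsb at chr14:63122462-63145923, Ctsz at chr2:174427493-174439039, Ctsl at chr13:64359337-64370890 and Ctsf at chr19:4855130-4860918. Ctsc lies at chr7:88278085-88310888, Ctsd at chr7:142375911-142388038, Ctsh at chr9:90054152-90076089 and Ctsa at chr2:164832873-164841032. The deposited annotation marks 7 of the 9 as confounded, all but Ctsf and Ctsh, against 50.8% of all genes in the table, and it does not say with what.

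The sequences before the starts of 3 called members are shown because Ctss, Ctsc and Ctsf had the called changes with the lowest adjusted p-values below. They come from the RefSeq promoter table of GRCm38.p6, which held 8 promoters for 7 of the 9 members, with Ctsb and Ctsh missing. Capitals mark matches to motifs searched on both strands. In these 3 stretches, bases inside the genes as placed above were left out. The Ctss stretch lies at chr3:95526536-95526785, the Ctsc stretch at chr7:88277835-88278084 and the Ctsf stretch at chr19:4854915-4855129, all on the plus strand.

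Ctss: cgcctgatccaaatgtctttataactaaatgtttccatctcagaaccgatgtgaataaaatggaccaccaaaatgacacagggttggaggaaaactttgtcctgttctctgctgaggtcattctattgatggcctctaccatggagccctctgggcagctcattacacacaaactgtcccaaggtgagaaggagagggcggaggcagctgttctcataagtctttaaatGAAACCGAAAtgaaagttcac
Ctsc: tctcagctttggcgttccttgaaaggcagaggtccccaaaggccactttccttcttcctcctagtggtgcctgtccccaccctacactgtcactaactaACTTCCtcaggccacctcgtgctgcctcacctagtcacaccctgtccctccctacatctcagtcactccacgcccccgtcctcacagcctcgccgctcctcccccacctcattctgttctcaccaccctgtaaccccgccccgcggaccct
Ctsf: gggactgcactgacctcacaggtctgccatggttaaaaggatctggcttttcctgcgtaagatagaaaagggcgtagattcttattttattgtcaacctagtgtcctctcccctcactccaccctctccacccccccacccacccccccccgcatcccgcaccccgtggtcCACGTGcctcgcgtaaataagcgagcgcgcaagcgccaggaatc

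The capitals before Ctss match the core of the interferon-stimulated response element (2 GAAA blocks with 2 free bases between them), 21 bases before the RefSeq start, and this match was found in 3.44% of 32851 promoters of the same 300-base length. The capitals before Ctsc are GGAAGT read on the other strand, a core bound by ETS factors, 151 bases before the start. A match to GGAAGT was found in 23.8% of promoters, and 3 of 7 members held one. The capitals before Ctsf are CACGTG, the E-box that TFEB and other basic helix-loop-helix factors bind, 79 bases before the start. CACGTG was found in 7.15% of promoters and in 4 of 7 members, namely Ctsa, Ctsd, Ctsf and Ctsl. Its longer form TCACGTG, which contains CACGTG, was found in 3.77% of promoters and in 2 members, Ctsa and Ctsd. Both have repeated copies, shown in short windows. That of Ctsa lies at chr2:164833758-164833787 (plus strand, across a second RefSeq start inside the gene). Those of Ctsd lie at chr7:142388055-142388077 and chr7:142387908-142387937 (minus strand). The proximal Ctsd copy lies before the RefSeq start but inside the gene as placed above.

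Ctsa: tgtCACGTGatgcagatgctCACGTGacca
Ctsd, distal copy: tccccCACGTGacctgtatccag
Ctsd, proximal copy: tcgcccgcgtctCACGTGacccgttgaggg

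A match describes these letters in this window and does not show that a factor binds there.

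In naive microglia, the 9 cathepsins spanned a wide range of levels, with Ctss among the most abundant transcripts of the library. Ctss, the endopeptidase of the MHC class II pathway, averaged 14.27 ± 0.27 (SD, n = 4) and ranked between 2 and 4 among all genes in each library. Ctsd followed at 12.54 ± 0.84, Ctsz at 11.10 ± 0.21 and Ctsb at 10.87 ± 0.50. The ranges of Ctss and Ctsd did not overlap, nor did those of Ctsd and Ctsz, whereas those of Ctsz and Ctsb did. Below them stood Ctsa at 10.15 ± 0.34, Ctsh at 9.67 ± 0.15, Ctsc at 9.53 ± 0.31, Ctsl at 8.40 ± 0.35 and Ctsf at 7.98 ± 0.42. Neighbours from Ctsa to Ctsc overlapped, Ctsl lay apart below Ctsc, and Ctsl and Ctsf overlapped. Shares of the summed FPKM of the 9 genes were taken on the linear scale, as 2 to the power of the deposited value. Ctss made up 58.7% ± 4.2 of this sum, Ctsd 18.8% ± 8.3 and Ctsf 0.783% ± 0.302. The normalization gives each rank the same value in every library, so the Ctss part of the sum is set by its rank. The shares of the other members rest on the same sum.

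**Figure D1:**
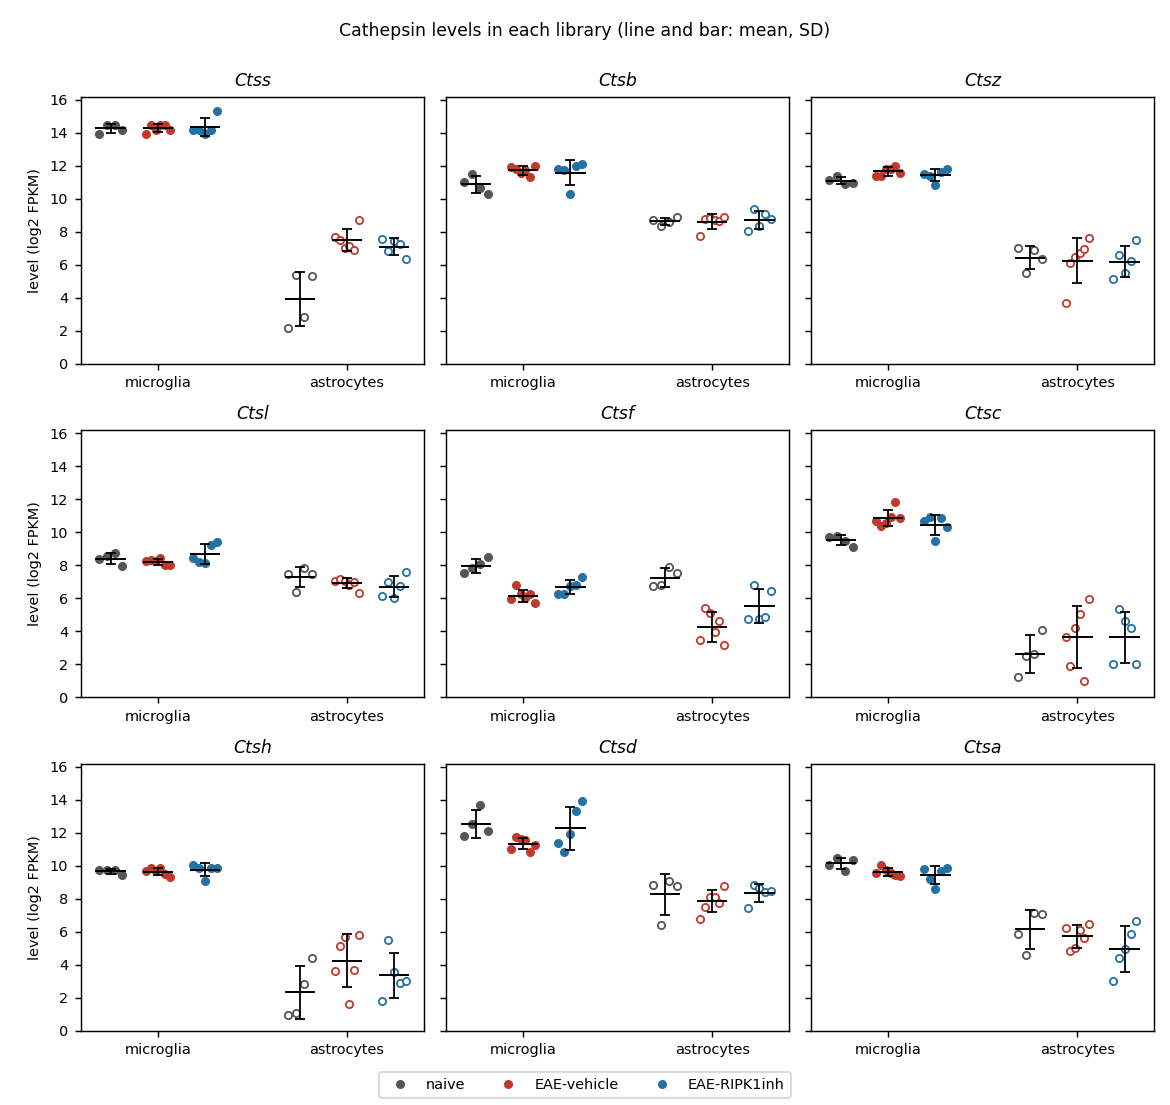
Level of each of the 9 cathepsins in each of the 30 libraries (y axis, log2 FPKM), by cell type and treatment. Filled points are microglia and open points astrocytes, horizontal lines are group means and bars are SD. Ctss lies between 13.93 and 15.34 in every microglia library, and its astrocyte points rise from naive to EAE, whereas Ctsf is lower in EAE in both cell types.

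The order was different in naive astrocytes. There Ctsb was highest at 8.64 ± 0.22, followed by Ctsd at 8.26 ± 1.26, Ctsl at 7.29 ± 0.62 and Ctsf at 7.25 ± 0.56. Ctsz averaged 6.43 ± 0.70 and Ctsa 6.14 ± 1.20, and each gene in this order overlapped the next. Ctss averaged 3.92 ± 1.66, Ctsc 2.61 ± 1.18 and Ctsh 2.32 ± 1.62, and Ctsh had no signal in 1 of the 4 libraries.

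All members but Ctsf were called higher in microglia than in astrocytes of naive mice, 8 of 9, against 10.0% of all genes called higher. The same 8 passed an adjusted p under 0.05, which 11.9% of genes did in either direction, and their ranges did not overlap between the cell types, as for 12.9% of genes. Ctss showed the widest difference of the 9, 10.35 (SE 0.50, adjusted p = 4.60e-15, limma), followed by Ctsh, an aminopeptidase, at 7.35 (SE 0.75) and Ctsc, a dipeptidyl-peptidase, at 6.92 (SE 0.81). Ctsb and Ctsl, both endopeptidases found in most tissues, differed by 2.23 (SE 0.33) and 1.11 (SE 0.34). Ctsf, another papain-family endopeptidase, was 0.73 higher in microglia (SE 0.49, adjusted p = 0.459, limma), with overlapping ranges and a 95% interval from -0.27 to 1.72. In EAE-vehicle mice all 9 were called higher in microglia, against 12.4% of genes, all 9 passed the adjusted threshold, against 13.8%, and all 9 had separate ranges, against 8.17%. There the Ctsf difference was 1.88 (SE 0.40, adjusted p = 0.00106, limma) and the Ctss difference 6.80 (SE 0.41). With 4 libraries against 4 the exact permutation test cannot go below 0.0286, the value of each of the 8 in naive mice. The study describes both cell types as sorted from spinal cords of the same mice, but the labels do not say which libraries share a mouse. The fits across cell types treated the 30 libraries as independent, which leaves this sharing out of their p-values. With the replicate number as a block, 8 and 9 members were again called.

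By the study's cutoff, 4 cathepsins were called between EAE-vehicle and naive microglia, in both directions. Ctsb and Ctsc rose and Ctsd and Ctsf fell in EAE-vehicle against naive mice, while Ctss, Ctsh, Ctsl, Ctsz and Ctsa were not called. The 2 higher calls among 9 stand beside 6.13% of all genes called higher, and the 2 lower calls beside 5.86% called lower. Ctsc and Ctsf passed an adjusted p under 0.05, which 3.92% of genes did. The median difference over the 9 was -0.03, and that over all genes -0.02. Ctsc, Ctsd and Ctsf were the 3 members whose ranges did not overlap between the groups, against 5.33% of genes.

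Ctsc encodes the dipeptidyl-peptidase that activates granule serine proteases of leukocytes. Its level in naive microglia was 9.73, 9.80, 9.47 and 9.12, and in EAE-vehicle microglia it ran from 10.38 through a median of 10.76 to 11.81. Every EAE-vehicle library lay above every naive one. The difference was 1.34 (SE 0.31, adjusted p = 0.0220, limma), a 2.52-fold rise (exact permutation p = 0.00952, two-sided, the smallest that 4 against 6 mice allow).

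Ctsb, an endopeptidase that also acts as a carboxypeptidase, was at 11.04, 11.48, 10.67 and 10.31 in naive microglia and ran from 11.32 through 11.77 to 12.02 in EAE-vehicle microglia. The highest naive library overlapped the lowest EAE-vehicle library, and all 6 EAE-vehicle libraries lay above the naive mean. The difference was 0.85 (SE 0.32, unadjusted p = 0.0190, adjusted p = 0.210, limma, exact permutation p = 0.0190). Without naive replicate 4, which had the fewest genes with signal among microglia libraries, it was 0.67 and no longer called, nor was it with library quality weights (0.65, unadjusted p = 0.171, limma).

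Ctsz, a carboxypeptidase, was at 11.14, 11.38, 10.92 and 10.97 in naive microglia and ran from 11.38 through 11.69 to 12.02 in EAE-vehicle microglia. The groups touched at 11.38. The difference of 0.56 (SE 0.19, unadjusted p = 0.0101, adjusted p = 0.145, limma) corresponds to 1.47-fold, just under the fold cutoff. Ctsz was called when naive replicate 2 or EAE-vehicle replicate 1 or 2 was left out, at 0.62 to 0.65. It was also called with library quality weights (0.59, unadjusted p = 0.0408, limma).

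Ctsf was at 7.51, 7.84, 8.06 and 8.52 in naive microglia and ran from 5.69 through 6.12 to 6.79 in EAE-vehicle microglia. Every EAE-vehicle library lay below every naive one. Ctsf fell by 1.82 on the log2 scale (SE 0.26, adjusted p = 7.72e-04, limma, exact permutation p = 0.00952), a 3.53-fold difference, and it remained called in each of the alternatives run. Its share of the summed FPKM was 0.218% ± 0.051 (n = 6), against 0.783% in naive microglia.

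Ctsd, the aspartic protease and the next most abundant member after Ctss in naive microglia, was at 11.81, 12.55, 13.71 and 12.10 there and ran from 10.85 through 11.41 to 11.73 in EAE-vehicle microglia. All naive libraries lay above all EAE-vehicle libraries by a narrow gap, and naive replicate 3 was the highest. Ctsd fell by 1.20 (SE 0.53, unadjusted p = 0.0417, adjusted p = 0.335, limma, exact permutation p = 0.00952). The call was lost without naive replicate 2 or 3 or EAE-vehicle replicate 1, 5 or 6, with values of -1.20, -0.81, -1.14, -1.10 and -1.18 in that order. It was also lost without a variance trend (-1.20), with library quality weights (-1.52) and with the replicate number as a block (-1.32), where the fold was as large or larger and the unadjusted p lay above 0.05. Its share of the summed FPKM was 7.94% ± 1.72 in EAE-vehicle microglia, against 18.8% in naive microglia.

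Ctsa, which shields lysosomal galactosidase and neuraminidase besides cleaving peptides, was at 10.06, 10.46, 9.70 and 10.38 in naive microglia and ran from 9.39 through 9.56 to 10.06 in EAE-vehicle microglia. All 6 EAE-vehicle libraries lay below the naive mean, but the ranges overlapped. The difference of -0.53 (SE 0.25, unadjusted p = 0.0516, limma, exact permutation p = 0.0476) was not called, though it was when naive replicate 3 or EAE-vehicle replicate 2 was left out, at -0.68 and -0.61.

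The levels of 3 members differed by 0.20 or less, with overlapping ranges. Ctss was at 13.93, 14.48, 14.48 and 14.20 in naive microglia and between 13.93 and 14.48 in EAE-vehicle microglia, a difference of 0.02 with a 95% interval from -0.48 to 0.52. Quantile normalization gives each rank the same value in every library, and Ctss held ranks 1 to 4 in all 15 microglia libraries, so this scale leaves little room above it. Ctsh differed by -0.03 with an interval from -0.41 to 0.36, and Ctsl by -0.20 with an interval from -0.74 to 0.35.

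**Figure D2:**
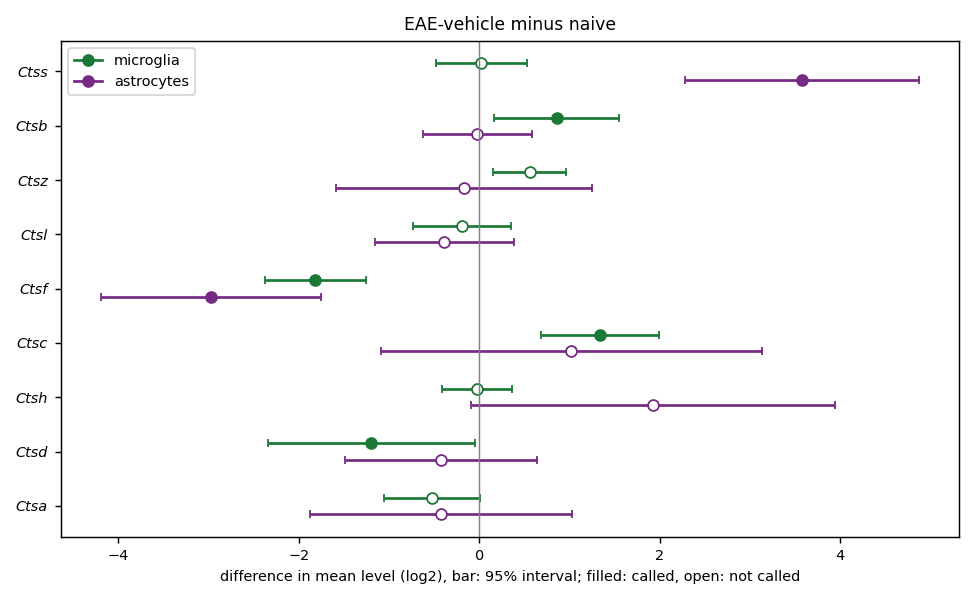
Difference in mean level between EAE-vehicle and naive libraries (x axis, log2) for each cathepsin, with 95% intervals from limma, in microglia (green) and astrocytes (purple). Filled points were called. Ctsf is lower in both cell types, at -1.82 and -2.97, and Ctss lies at 0.02 in microglia and at 3.57 in astrocytes.

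The 4 members with CACGTG in a promoter window, Ctsa, Ctsd, Ctsf and Ctsl, had differences of -0.53, -1.20, -1.82 and -0.20 in EAE microglia, and the 3 without it, Ctsc, Ctss and Ctsz, had 1.34, 0.02 and 0.56. Among them, Ctsc, Ctsd and Ctsf alone were called. The Ctsa match lies at the second RefSeq start, and the other Ctsa promoter held no match. The whole Ctsl window lies inside the gene as placed above. This grouping was noticed after the values were seen and was not tested. Of the 4 MiT/TFE factors, which bind such boxes in lysosomal genes, Tfe3 was called lower at -1.55 (SE 0.46, adjusted p = 0.0880, limma) and the other 3 were not called. A part of these factors in the cathepsin values was not tested.

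The summed level of the 9, as log2 FPKM, was 15.05 ± 0.31 (n = 4) in naive and 15.03 ± 0.16 (n = 6) in EAE-vehicle microglia, and Ctss made up 60.1% ± 2.7 of it in the latter. Ctss held ranks whose values are fixed by the normalization, so the likeness of the sums, and of its share, is no measure of stability. The order below Ctss changed from Ctsd, Ctsz and Ctsb to Ctsb, Ctsz and Ctsd, neighbours whose ranges overlapped in EAE, and Ctsc moved above Ctsh and Ctsa with a gap to them.

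**Figure D3:**
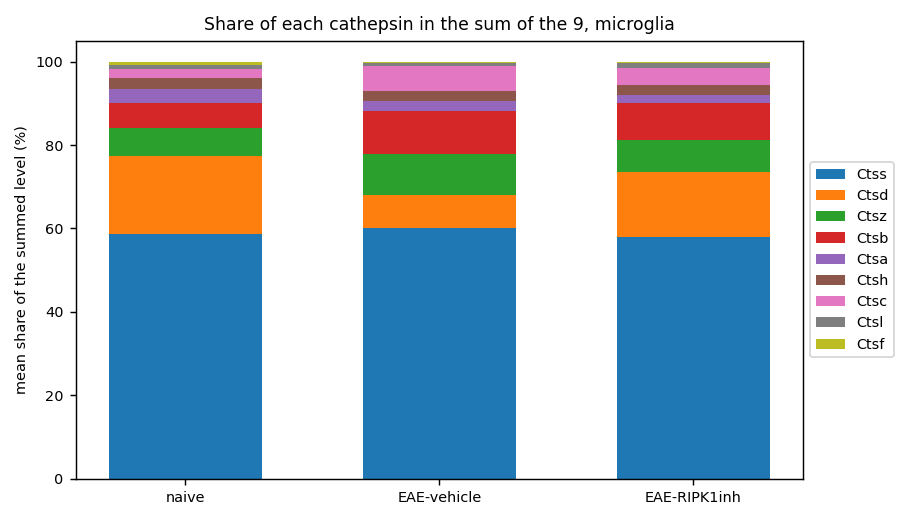
Mean share of each cathepsin in the summed FPKM of the 9 in microglia (y axis, percent, stacked to 100), for naive (n = 4), EAE-vehicle (n = 6) and EAE-RIPK1inh (n = 5) mice. Ctss takes 58.1% to 60.1% in each group, and the share of Ctsd is 18.8%, 7.94% and 15.6%. The Ctss values are set by its rank under the normalization.

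Genes that act with cathepsins also differed in EAE microglia. Among 5 cystatins and stefins tested, 2 rose and 1 fell (median 1.34, against -0.02 over all genes). Cst3 (cystatin C), a secreted inhibitor, was the most abundant gene of each naive microglia library at 15.34 and averaged 12.59 ± 0.22 (n = 6) in EAE-vehicle microglia, a fall of 2.75 (SE 0.20, adjusted p = 1.63e-06, limma), measured from the top of the scale. Cst7 (cystatin F), which acts inside the endosome and inhibits cathepsin C, rose from 2.80 ± 1.82 to 7.86 ± 0.26, by 5.06 (SE 0.60, adjusted p = 1.60e-04, limma). Cstb (stefin B), a cytosolic inhibitor, rose by 1.96 (SE 0.29, adjusted p = 9.66e-04, limma).

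All 4 genes of the antigen processing list rose. Cd74, the substrate of cathepsin S, went from 6.95 ± 0.44 to 15.34, the top rank in each of the 6 EAE-vehicle libraries. Ifi30 (GILT, a thiol reductase), H2-DMa and H2-DMb1 (subunits of the MHC class II peptide exchanger) rose by 2.14, 1.31 and 1.29. Among 11 genes of maturation and sorting, 2 rose and 1 fell (median 0.20). These were Igf2r, the large mannose 6-phosphate receptor, at 1.72 (SE 0.40), Gnptab, which makes the mannose 6-phosphate tag, at 1.55 (SE 0.36), and Nagpa, which uncovers that tag, at -0.66 (SE 0.27). None of the 4 proteases activated by cathepsin C was called. Of 5 other cathepsins, Ctso alone was called, lower by 1.40 (SE 0.24, adjusted p = 0.00306, limma). Of 8 rodent placental cathepsins, 2 were in the table, neither was called, and the other 6 were not analysed here, nor were Stfa2 and Stfa3.

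These differences came with changes in the markers of the sorted cells. All 10 homeostatic microglia markers were called lower in EAE-vehicle microglia (median -2.51), with library means of 10.00 to 10.62 in naive and 7.18 to 7.92 in EAE-vehicle mice. Of 9 monocyte and neutrophil markers, Ly6c2 and Plac8 were called higher and the median was 1.05. Their library means were 2.01 to 6.39 in naive and 2.47 to 6.48 in EAE-vehicle mice. The 6.39 was that of naive replicate 3, the naive library with the highest Ctsd, and the other naive means were 3.69 or less. The part of infiltrating cells in the cathepsin differences was not tested.

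RIPK1 inhibition called 0 of the 9 cathepsins in EAE microglia by the study's cutoff in limma, and 1.76% of all genes were called. With no fold cutoff, Ctsf alone had an unadjusted p under 0.05 in limma, just inside that threshold. Of the 9 genes, 0 passed an adjusted p under 0.05, as against 0.00345% of genes. The largest difference was that of Ctsd, at 11.38, 10.85, 11.93, 13.32 and 13.93 in EAE-RIPK1inh microglia against 10.85 to 11.73 with vehicle. Replicates 3, 4 and 5 lay above the vehicle range and the other 2 within it. The Ctsd difference was 0.94 (SE 0.50, unadjusted p = 0.0828, limma, exact permutation p = 0.165, 95% interval -0.14 to 2.01).

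Ctsf was at 6.26, 6.29, 6.74, 6.83 and 7.30 with RIPK1inh, all above the vehicle mean of 6.16, with replicates 4 and 5 above the vehicle range. Its difference of 0.52 (SE 0.24, adjusted p = 0.930, limma, exact permutation p = 0.0519) was 1.44-fold, under the fold cutoff. Ctsl, which also cleaves the invariant chain in some cells, was at 8.43, 8.20, 8.17, 9.21 and 9.43, with replicates 4 and 5 above the vehicle range of 7.99 to 8.45 and replicates 1 to 3 within it. Its difference was 0.48 (SE 0.24, unadjusted p = 0.0628, limma, 95% interval -0.03 to 0.99).

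The other 6 differences ran from -0.42 for Ctsc to 0.10 for Ctsh. Their intervals reached from -1.03 to 0.20 for Ctsc, from -0.61 to 0.15 for Ctsz, from -0.79 to 0.50 for Ctsb and from -0.70 to 0.30 for Ctsa. Those of Ctsh and Ctss ran from -0.27 to 0.46 and from -0.39 to 0.55. These intervals include a 1.5-fold change in at least 1 direction for Ctsa, Ctsb, Ctsc and Ctsz. That of Ctss does not bound its change, because Ctss held ranks 1 to 4, whose values the normalization fixes.

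Single libraries bore on these values. EAE-RIPK1inh replicate 3 was the lowest of its group for 7 members, all but Ctsd and Ctsf, and had the highest monocyte and neutrophil marker mean of all 15 microglia libraries, 7.68 against 2.03 to 3.89 in the other 4 of its group. Replicate 5 was the highest of its group for 7 members, all but Ctsc and Ctsh, and had the highest homeostatic marker mean of the EAE libraries, 8.93. The number of cathepsins called was 1 without EAE-vehicle replicate 2, 2 without EAE-RIPK1inh replicate 1, 3 without replicate 2 and 1 without replicate 3, all of them Ctsd, Ctsf or Ctsl and higher with RIPK1inh. With libraries weighted by quality it was 4, Ctsc (lower), Ctsd, Ctsf and Ctsl. Among partner genes, Cd74 was called lower with RIPK1inh at -0.84 (SE 0.23, adjusted p = 0.930, limma), measured from the top rank that it held in all 6 EAE-vehicle libraries, and none of the cystatins, sorting genes, MiT/TFE factors or other cathepsins was called.

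**Figure D4:**
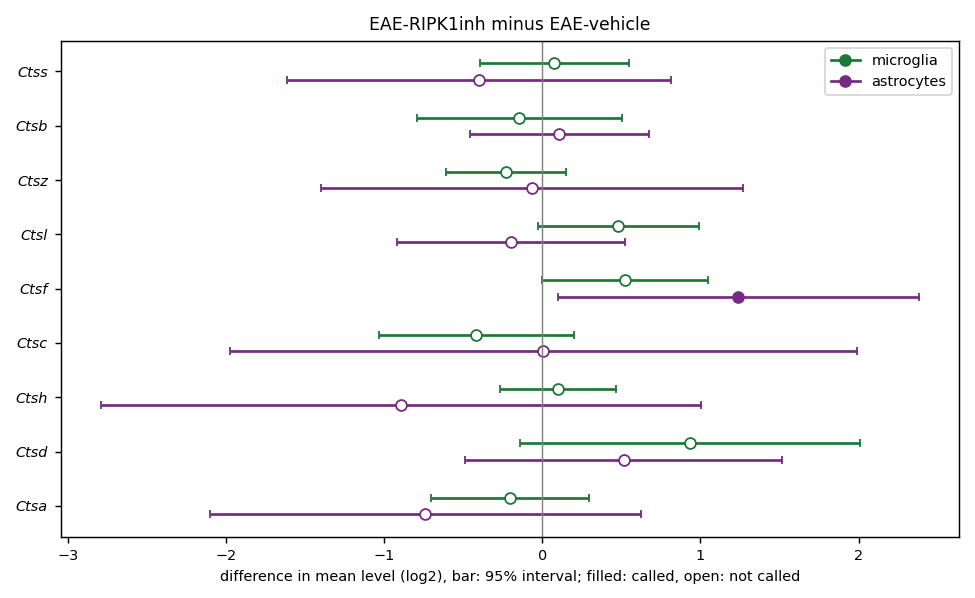
Difference in mean level between EAE-RIPK1inh and EAE-vehicle libraries (x axis, log2) for each cathepsin, with 95% intervals from limma, in microglia (green) and astrocytes (purple). Filled points were called, which is Ctsf in astrocytes alone, at 1.24.

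Against naive mice, EAE-RIPK1inh microglia had 1 member called higher, Ctsc at 0.92 (SE 0.32, adjusted p = 0.198, limma), beside 5.35% of genes called higher. The 2 called lower were Ctsf at -1.30 (SE 0.27, adjusted p = 0.0181) and Ctsa at -0.73 (SE 0.26, adjusted p = 0.215), beside 4.71% called lower. Ctsd, at -0.26 (SE 0.56), was not called. This comparison shares its naive libraries with that of EAE-vehicle against naive and its EAE-RIPK1inh libraries with that of RIPK1inh against vehicle, so the values are not independent of those above.

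In astrocytes, 2 cathepsins were called by the study's cutoff. Ctss rose and Ctsf fell in EAE-vehicle against naive mice, and 7 members were not called. The single higher call stands beside 2.69% of genes called higher and the single lower call beside 4.01% called lower, and both passed an adjusted p under 0.05, which 0.579% of genes did. The same 2 members had ranges that did not overlap, against 2.32% of genes.

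Ctss was at 2.17, 5.36, 2.85 and 5.31 in naive astrocytes and ran from 6.90 through 7.32 to 8.74 in EAE-vehicle astrocytes. All 6 EAE-vehicle libraries lay above all naive ones, and the naive libraries fell into a lower and a higher pair. The difference was 3.57 (SE 0.61, adjusted p = 0.0110, limma, exact permutation p = 0.00952), an 11.9-fold rise. Ctss moved from the seventh to the third place among the 9.

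Ctsf was at 6.75, 6.83, 7.92 and 7.51 in naive astrocytes and ran from 3.14 through 4.28 to 5.40 in EAE-vehicle astrocytes. All EAE-vehicle libraries lay below all naive ones. Ctsf fell by 2.97 (SE 0.57, adjusted p = 0.0275, limma, exact permutation p = 0.00952), a 7.86-fold difference. It went from the fourth to the seventh place.

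Ctsh, scattered from 0.97 to 4.40 in naive and from 1.61 to 5.78 in EAE-vehicle astrocytes, differed by 1.93 (SE 0.95, unadjusted p = 0.0601, limma) and was not called. It was called with libraries centred on their median (2.05, unadjusted p = 0.0416, limma) and without naive replicate 4 (2.62), EAE-vehicle replicate 4 (2.45) or EAE-RIPK1inh replicate 2 (1.93). Ctsc differed by 1.02 with a 95% interval from -1.09 to 3.13. The differences of Ctsa, Ctsb, Ctsd, Ctsl and Ctsz lay between -0.43 and -0.02. Ctsb had the narrowest interval of the 9 for its difference, from -0.62 to 0.58. Ctsd was called lower, at -1.05, when naive astrocyte replicate 2, its lowest naive library and one of few genes, was left out. It was also called lower without all the libraries of few genes (-0.84, unadjusted p = 0.0234, limma). Ctsl was called lower with library quality weights (-0.68, unadjusted p = 0.0398, limma).

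The Ctss rise came with markers of blood and immune cells in the astrocyte libraries. All 10 pan-myeloid markers were called higher (median 3.65), and their library means were 0.80 to 2.06 in naive and 4.38 to 6.35 in EAE-vehicle astrocytes. The pair of naive libraries with the higher Ctss also had the higher pan-myeloid means, 1.93 and 2.06 against 0.80 and 1.34. Aif1 and Itgam had no signal in any naive astrocyte library. Of 9 T cell markers 7 were called higher (median 3.81), with library means of 0.15 to 0.87 in naive and 0.94 to 5.69 in EAE-vehicle mice, and of 8 monocyte and neutrophil markers tested 5 were called higher (median 3.09). Ctsw, a cathepsin of cytotoxic lymphocytes, rose by 4.98 (SE 1.02, adjusted p = 0.0420, limma), and Gzma, a granule protease of such cells, by 3.19 (SE 1.16). At the same time 4 of 8 astrocyte markers were called lower and 1 higher (median -1.14), and 4 of 7 oligodendrocyte markers higher (median 2.34). The part of these cells in the Ctss and Ctsf values was not tested.

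**Figure D5:**
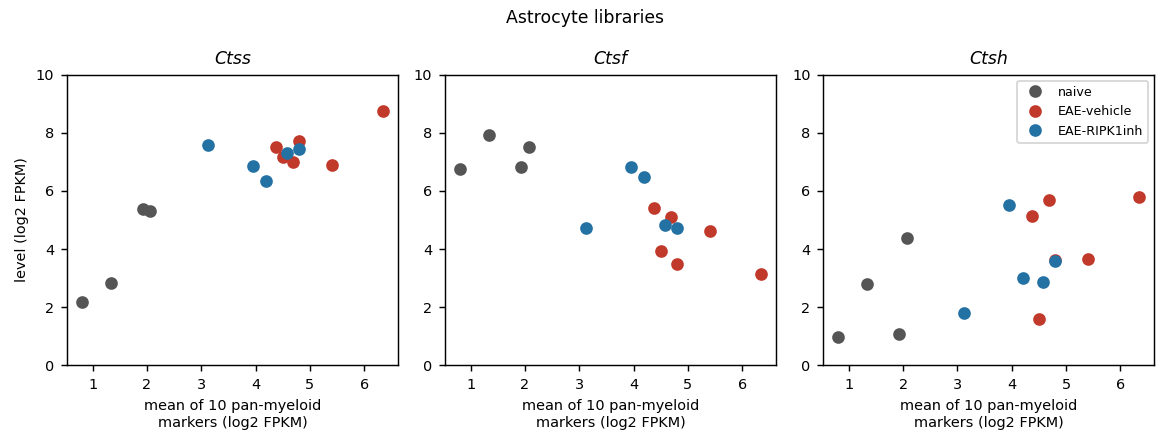
Level of Ctss, Ctsf and Ctsh in each of the 15 astrocyte libraries (y axis, log2 FPKM) against the mean of 10 pan-myeloid markers in the same library (x axis, log2 FPKM), coloured by treatment. Ctss is low where the marker mean is under 2.1 and between 6.33 and 8.74 in the EAE libraries, where it is above 3.1.

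Partner genes in EAE-vehicle astrocytes followed partly the directions seen in microglia. Cst3 fell by 1.49 (SE 0.24, adjusted p = 0.00694, limma), and Cst7 and Cstb rose by 2.87 (SE 0.89) and 1.75 (SE 0.47). Of the antigen processing genes, Cd74 rose by 7.47 (SE 0.73, adjusted p = 7.44e-05), H2-DMa by 3.02 and H2-DMb1 by 2.61. Of 11 maturation and sorting genes Psap, the precursor of saposins, and Glb1, the galactosidase that cathepsin A shields, fell by 1.17 and 2.25 (list median -1.05, against 0.03 over all genes). Of the 4 MiT/TFE factors none was called.

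With RIPK1inh, Ctsf was the 1 member of 9 called in astrocytes, beside 3.02% of genes, and 0 of 9 passed an adjusted p under 0.05, as did 0% of genes. Ctsf was at 4.71, 6.83, 4.74, 4.84 and 6.46 with RIPK1inh against 3.14 to 5.40 with vehicle. Replicates 2 and 5 lay above the vehicle range and the other 3 within it. The difference was 1.24 (SE 0.53, unadjusted p = 0.0349, adjusted p = 0.840, limma, exact permutation p = 0.0779). The call was lost without EAE-vehicle replicate 1, 4 or 6 or EAE-RIPK1inh replicate 2 or 5, with values from 0.91 to 1.17, and with libraries centred on their median, at 1.21.

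The other 8 members differed by -0.89 (Ctsh) to 0.51 (Ctsd). Ctss was at 7.58, 6.85, 7.45, 7.29 and 6.33, 3 of them within the vehicle range and 2 below it, with a difference of -0.40 (95% interval -1.61 to 0.82). Ctsb had the narrowest interval, from -0.46 to 0.67, and Ctsc the widest, from -1.98 to 1.99. The pan-myeloid marker means were 3.11 to 4.79 with RIPK1inh. Against naive mice, EAE-RIPK1inh astrocytes had Ctss called higher at 3.18 (SE 0.63, adjusted p = 0.0830, limma) and Ctsf called lower at -1.73 (SE 0.59, adjusted p = 0.716), 2 of 9 beside 4.63% of genes.

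The effect of EAE was compared between the cell types through the interaction of cell type and treatment, fitted over the 30 libraries together. Ctss was the 1 member of 9 called, with a difference between the effects (microglia minus astrocytes) of -3.55 (SE 0.65, adjusted p = 0.00374, limma), beside 8.68% of genes called and 0.982% passing the adjusted threshold. For Ctsf, which fell in both cell types, the difference was 1.15 (SE 0.63, 95% interval -0.13 to 2.44). Ctsh and Ctsb followed at -1.95 (unadjusted p = 0.0540) and 0.88 (unadjusted p = 0.0510). With the replicate number as a block 3 members were called, Ctss, Ctsf (unadjusted p = 0.0447, limma) and Ctsb (0.0486), and the same 3 were called with the block set within each treatment across cell types. Ctss was near the top of the scale in microglia, and other-cell markers differed in astrocytes, as given above, and the part of either in this term was not tested. The microglia minus astrocyte difference of the 10 pan-myeloid markers was 9.30 in naive and 6.04 in EAE-vehicle mice (medians), beside 10.35 and 6.80 for Ctss. For the effect of RIPK1inh, 0 of 9 members were called in limma, beside 3.15% of genes, the lowest unadjusted p being 0.107, that of Ctsl.

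The genes most like each member over the 15 microglia libraries were ranked by the root mean square difference after each gene was centred on its own mean, among 9695 protein-coding genes. They were Hsp90b1 (0.16) and Asah1 (0.20) for Ctsh, Lpxn (0.20) and Rnf13 (0.24) for Ctsf, and Ankle2 (0.20) and Msn (0.21) for Ctsl. For Ctsb they were Plek (0.21) and Spop (0.31), for Ctsa Cd86 (0.22) and Gpat4 (0.25), and for Ctsz Gusb (0.22) and Glud1 (0.23). Atp1b3 (0.26) and Gusb (0.27) were nearest to Ctss, Hspa4 (0.28) and Ube2l3 (0.33) to Ctsc, and Pald1 (0.35) and Tspan14 (0.39) to Ctsd. Gusb, a lysosomal glucuronidase, was thus listed for 2 members, Ctss and Ctsz. The measure is small between any genes that vary little, so a low value need not mean a shared pattern.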

How the data were processed

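Microglia and astrocytes were sorted from spinal cords, and their RNA was sequenced. The authors quantified reads as FPKM in OmicSoft Array Studio and deposited quantile-normalized log2 values. The aligner, the annotation release and the offset before the logarithm are not given in the sources used here. Depth is unknown, so no counting error was computed. Genes without signal were recognised as the lowest values of a library, whose sorted order only follows the order of the table. The deposited annotation supplied gene names, positions and exon lengths, and all 9 positions match GENCODE M21 on GRCm38.

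Groups were taken from the labels. Values were fitted with limma 3.58.1 (lmFit, eBayes with trend) in R 4.3.3, 1 fit for each cell type and 1 of all 30 libraries for comparisons across cell types, with 28958, 30718 and 30952 genes tested. Calls required more than 1.5-fold and an unadjusted p under 0.05. The study names a paired t test, but the labels do not say what equal replicate numbers share, so the fits were unpaired. Exact permutation tests were two-sided. Genes named are the 9 members and, from each list, called genes with a mean of at least 1, at most the 4 with the largest change. The members and lists were chosen with earlier results of these data known. Alternatives were the filter, offset, scaling, variance trend, library weights, groups in the fit, call rule, replicate block and leaving out libraries.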

Additional observations from a re-analysis of the deposited data

Results flagged for a closer look

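Of 54 sets of values (9 cathepsins in 6 groups), 8 held a library whose gap to its nearest neighbour exceeded Dixon's 95% critical value, where chance flags about 1 in 20. In microglia these were Ctsb at 10.27 and Ctsh at 9.06 in EAE-RIPK1inh replicate 3, both low, Ctss at 15.34 in EAE-RIPK1inh replicate 5, the highest rank, and Ctsh at 9.45 in naive replicate 4, low. In astrocytes they were Ctsb at 7.74 and Ctsz at 3.66 in EAE-vehicle replicate 1, Ctsd at 6.38 in naive replicate 2 and Ctsd at 7.42 in EAE-RIPK1inh replicate 1, all low. Of these 8 values, 4 came from the 3 libraries with under 9000 genes with signal.

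The effect of EAE on Ctss differed between the cell types by -3.55 (microglia minus astrocytes, adjusted p = 0.00374, limma interaction term). Ctss averaged 14.27 in naive microglia, and the normalization fixes the top rank at 15.34. A rise as large as the 3.57 in astrocytes could thus not show in microglia. Pan-myeloid markers were also higher in EAE-vehicle than in naive astrocyte libraries. The part of either in this term was not tested.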

How the results depend on the processing

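Values are log2 differences or the number of the 9 cathepsins called, and leaving out each library in turn is given as a range. By an adjusted p under 0.05 in place of the study's cutoff, the calls were 2 (main 4) for EAE-vehicle against naive and 1 (main 3) for EAE-RIPK1inh against naive in microglia, and 0 for RIPK1inh against vehicle (main 1) and 0 for EAE-RIPK1inh against naive (main 2) in astrocytes. For RIPK1inh against vehicle in microglia (main 0) the calls were 1 among genes with a mean of at least 1 and 4 with library quality weights, and 0 to 3 with a library left out. For RIPK1inh against vehicle in astrocytes (main 1) they were 0 with libraries centred, with the replicate block, in a fit of only the groups compared and without the 3 libraries of few genes, and 0 to 1 with a library left out. With quality weights EAE-RIPK1inh against naive gave 1 in microglia and 4 in astrocytes, and 4 in astrocytes without the libraries of few genes. For the difference between cell types in the EAE effect (main 1) the calls were 3 with the mean filter, 2 centred, 2 weighted, 3 with the replicate block and 3 with the block within treatment across cell types, and 1 to 3 with a library left out. Leaving out a library gave 3 to 6 for EAE-vehicle against naive (6 without EAE-vehicle replicate 2) and 3 to 4 for EAE-RIPK1inh against naive in microglia, 2 to 3 and 2 to 4 in astrocytes, and 0 to 1 for the cell type difference in the RIPK1inh effect. The differences that turned direction were of genes not called. For EAE-vehicle against naive in microglia they were Ctss at -0.0041 (weights), -0.10 (replicate block) and -0.0018 (few-gene libraries out) and Ctsh at 0.0478 (replicate block), with ranges of -0.0924 to 0.10 and -0.10 to 0.0387. In astrocytes they were Ctsb at 0.10 (centred), 0.0237 (weights) and 0.0637 (few-gene libraries out), range -0.11 to 0.16, and Ctsz at 0.28 (weights) and 0.0277 (few-gene libraries out), range -0.49 to 0.35. For RIPK1inh against vehicle in microglia they were Ctsa at 0.10 and Ctsb at 0.0931 (weights), with ranges of -0.32 to 0.0110 and -0.27 to 0.19, and Ctss ranged from -0.16 to 0.19. In astrocytes they were Ctsc at -0.0301 (offset), -0.0228 (centred) and -0.10 (weights), range -0.52 to 0.47, Ctsb at -0.0020 (weights) and -0.0682 (few-gene libraries out), range -0.0682 to 0.28, and Ctsz at 0.21 (replicate block), range -0.58 to 0.21. Centring moved the median of all genes from 0.03 to 0.14 for EAE in astrocytes and from -0.05 to -0.19 for the cell type difference in that effect. Libraries of equal number in 2 groups correlated between -0.17 and 0.26, with no comparison over 0.1 in every pair. For EAE-vehicle against naive microglia, 3 of 4 libraries correlated best with their own number, and in each other comparison 1 or 2 did. Libraries of different treatment groups come from different mice, so only the comparisons of microglia with astrocytes bear on a shared mouse. The correlations cannot show whether equal numbers share a mouse there. The numbers were not taken as pairs because the labels do not tie them. The causes were not tested. The block across cell types and the omission of few-gene libraries were chosen after seeing the data. Depth is unknown, and the values near the top rank limit what can be seen for Ctss.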
